A study of Mus musculus with 10 samples.

Results

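The granzyme inhibitor genes Serpinb9, Serpinb9b, Serpinb9e, Serpinb9f and Serpinb9g, the granzyme genes Gzmd and Gzme, and the Ctla2 genes Ctla2a and Ctla2b were followed on 10 Cy3 arrays of cultured mouse cells. These 9 genes, of 20863 named on the array, were read by every feature that carries one of the symbols, which gave 11 features. They were chosen by their measured levels on these same arrays, having been seen to differ between cells of different origin or between preparations. Those differences are therefore described here without a test. A feature was tested if it exceeded the 40th percentile of its array (4.99 to 5.02 on the log2 scale) on at least 2 arrays, and 10 of the 11 features, from 8 of the 9 genes, did so.

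The cells were Sertoli-like cells of the embryonic kind, induced with transgenes and called ieSCs. On 4 arrays they derived from tail tip fibroblasts (TTFs) labelled female and on 4 from embryonic fibroblasts (MEFs), while MEFs themselves were on 2 arrays. Sertoli cells are the somatic cells that nurse germ cells in the testis tubule. All cells had the congenic homozygous R26-M2rtTA background, which supplies the doxycycline-responsive activator. The ieSCs carried inducible Sox9, Gata4, Dmrt1, Wt1 and Nr5a1 and had spent 2 weeks in F12/DMEM with the drug withdrawn, and the MEFs, with no transgene, were grown for 2 weeks. The ieSC arrays bear a name number, 1 or 2, with 2 arrays to each, and these are called preparations 2 and 1 here, with the arrays lettered a and b. The 2 MEF arrays share 1 name, so every comparison with MEFs rests on 1 MEF name. The labels do not say what the number stands for or whether arrays of a name came from separate cultures. The p-values therefore measure the spread between these samples, part of which may be technical. Nor do the labels tie a number of TTF-derived ieSCs to the same number of MEF-derived ieSCs.

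Serpinb9, known as SPI6 in the mouse, is an intracellular serpin that inhibits granzyme B, the death-inducing protease that cytotoxic lymphocytes deliver to target cells, and its human counterpart has been found in Sertoli cells and placenta. Granzymes D and E are further serine proteases of the same family, known from activated cytotoxic lymphocytes and from uterine natural killer cells of the mouse. Ctla2a and Ctla2b encode short proteins that resemble the propeptide of cathepsin L-like cysteine proteases, and Ctla2a is an inhibitor of such proteases. In RefSeq's gene order (GRCm38.p6) the Serpinb9 genes lie in the clade B serpin cluster of chromosome 13, Gzmd and Gzme at the end of the granzyme cluster of chromosome 14, and the Ctla2 genes among placental cathepsin genes of chromosome 13.

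Serpinb9e, Serpinb9f and Serpinb9g moved as a group apart from Serpinb9, Gzmd and Gzme shared one order of samples, and Ctla2a and Ctla2b another. The 250 bases before the RefSeq start of each gene (GRCm38.p6) are printed to show how near these copies are to each other. Capitals mark TGACGT, the core of the cyclic AMP response element, and AAGGTCA, an element known to bind Nr5a1, which reads TGACCTT when it lies on the opposite strand.
Serpinb9e, chr13:33249358-33249607, plus strand: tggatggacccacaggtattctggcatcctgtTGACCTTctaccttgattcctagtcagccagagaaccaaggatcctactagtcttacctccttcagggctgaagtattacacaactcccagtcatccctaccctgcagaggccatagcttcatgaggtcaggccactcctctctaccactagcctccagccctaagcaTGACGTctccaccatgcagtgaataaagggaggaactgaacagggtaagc
Serpinb9f, chr13:33323827-33324076, plus strand: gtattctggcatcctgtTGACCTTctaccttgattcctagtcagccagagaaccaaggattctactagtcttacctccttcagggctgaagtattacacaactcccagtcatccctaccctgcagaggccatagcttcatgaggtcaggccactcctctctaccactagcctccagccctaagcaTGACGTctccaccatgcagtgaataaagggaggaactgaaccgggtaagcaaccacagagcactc
Serpinb9g, chr13:33484540-33484789, plus strand: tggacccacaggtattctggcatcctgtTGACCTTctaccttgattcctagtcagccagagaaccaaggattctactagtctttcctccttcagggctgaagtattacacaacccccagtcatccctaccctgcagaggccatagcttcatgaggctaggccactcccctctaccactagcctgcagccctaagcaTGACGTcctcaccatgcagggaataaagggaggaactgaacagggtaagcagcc
Serpinb9, chr13:33004291-33004540, plus strand: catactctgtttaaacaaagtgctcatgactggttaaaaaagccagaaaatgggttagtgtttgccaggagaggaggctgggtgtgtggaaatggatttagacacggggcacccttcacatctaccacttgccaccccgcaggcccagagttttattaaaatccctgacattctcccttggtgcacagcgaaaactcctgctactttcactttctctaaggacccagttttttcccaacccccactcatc
Gzmd, chr14:56132594-56132843, minus strand: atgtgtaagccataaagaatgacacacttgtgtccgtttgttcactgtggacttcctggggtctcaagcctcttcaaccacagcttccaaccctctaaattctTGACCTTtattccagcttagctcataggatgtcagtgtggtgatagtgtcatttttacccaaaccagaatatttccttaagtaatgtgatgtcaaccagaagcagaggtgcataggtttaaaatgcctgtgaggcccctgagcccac
Gzme, chr14:56120626-56120875, minus strand: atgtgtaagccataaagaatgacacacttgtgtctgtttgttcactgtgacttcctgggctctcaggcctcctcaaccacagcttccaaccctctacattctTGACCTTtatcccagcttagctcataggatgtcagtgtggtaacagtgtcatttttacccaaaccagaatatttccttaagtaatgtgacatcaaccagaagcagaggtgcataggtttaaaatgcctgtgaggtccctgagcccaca
Ctla2a, chr13:60936626-60936875, minus strand: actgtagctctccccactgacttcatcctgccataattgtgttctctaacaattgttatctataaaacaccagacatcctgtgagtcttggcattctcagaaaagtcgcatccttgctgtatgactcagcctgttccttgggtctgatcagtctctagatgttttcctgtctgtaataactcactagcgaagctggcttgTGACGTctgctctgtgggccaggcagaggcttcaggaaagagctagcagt
Ctla2b, chr13:60897448-60897697, minus strand: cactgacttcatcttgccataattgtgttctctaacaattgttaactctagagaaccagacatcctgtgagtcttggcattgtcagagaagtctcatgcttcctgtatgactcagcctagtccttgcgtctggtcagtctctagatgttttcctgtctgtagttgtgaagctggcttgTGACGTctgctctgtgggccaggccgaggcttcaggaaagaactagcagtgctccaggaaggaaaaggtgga

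The windows of Serpinb9e and Serpinb9f were identical at 99.1% of 235 aligned columns, and that of Serpinb9g matched them at 95.9% and 95.4%. Gzmd and Gzme matched at 95.2% of 250 columns and Ctla2a and Ctla2b at 88.1% of 236. TGACGT was found in Serpinb9e, Serpinb9f, Serpinb9g, Ctla2a and Ctla2b, 5 of the 9 genes, beginning 50, 65, 54, 50 and 72 bases before the start. Ctla2a has another RefSeq start, and from that one the motif begins 109 bases before. AAGGTCA was found in Serpinb9e, Serpinb9f, Serpinb9g, Gzmd and Gzme, again 5 of the 9 genes. Searched on both strands of all 32851 RefSeq windows of this length, TGACGT occurred in 6.47%, AAGGTCA in 4.08%, TGANTCA, the AP-1 element, in 6.75%, and AGATAA, the GATA factor site, in 9.99%. TGANTCA occurred in 2 of the 9 genes and AGATAA in 1, no motif overlapped another among those in capitals, and TGACGT was picked after the sequences had been seen. Near-identical copies share their sequence, so these counts are not independent of each other.

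On the series as a whole, arrays of a shared name correlated at 0.9896 to 0.9966, ieSCs of different origin at 0.9675 to 0.9754, and ieSCs with MEFs at 0.926 to 0.9408. The Sertoli markers Wt1, which is also an introduced factor, and Dhh were bright on all 8 ieSC arrays (Wt1 at 16.71 or more, Dhh at 12.06 or more), while Amh stayed at 3.65 to 5.45 on the log2 scale. Of 10 Sertoli markers 7 were higher in ieSCs than in MEFs by limma and 3 lower, and the 3 were Sox9 (-3.46 ± 0.16), Gata4 and Cldn11. Of 10 fibroblast markers 9 were lower, Thy1 among them, and Dcn was not. Over all features 24.6% were higher and 20.0% lower. Xist, the RNA of the inactive X chromosome, read 3.77 to 4.35 on the 4 arrays labelled as from female TTFs, 3.41 to 4.60 in MEF-derived ieSCs and 9.31 to 9.37 in MEFs, which goes against the female label. The Y-linked Eif2s3y read 3.42 to 4.01, 3.16 to 3.83 and 10.29 to 10.33 in those groups, so neither gene of the pair was bright in either kind of ieSC. The values of the chosen genes against MEFs, and the list counts, are for that reason also given without the TTF-derived arrays. Without those arrays 11654 of 42617 features were higher than in MEFs by limma and 9420 lower.

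Serpinb9, the granzyme B inhibitor itself, was bright in both kinds of ieSC. Its feature (13965) read 13.64 and 13.60 in preparation 2 and 13.47 and 13.47 in preparation 1 of TTF-derived ieSCs. It read 14.33 and 14.36 in preparation 2 and 14.26 and 14.22 in preparation 1 of MEF-derived ieSCs, against 9.87 and 9.89 in MEFs. Every ieSC array lay above both MEF arrays, and every TTF-derived array lay below every MEF-derived one by a small margin. The level was a log2 4.04 ± 0.10 (SE) higher in ieSCs than in MEFs, a 16.4-fold difference, with an adjusted p of 3.703e-09 (limma moderated test, two-sided, Benjamini-Hochberg adjustment over 42617 features). This comparison takes the mean of both ieSC groups minus MEF. Without the TTF-derived arrays the difference was 4.41. Between origins, TTF-derived minus MEF-derived, it was -0.75, and between preparations 2 and 1 it was 0.15 in TTF-derived and 0.10 in MEF-derived ieSCs.

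**Figure D1:**
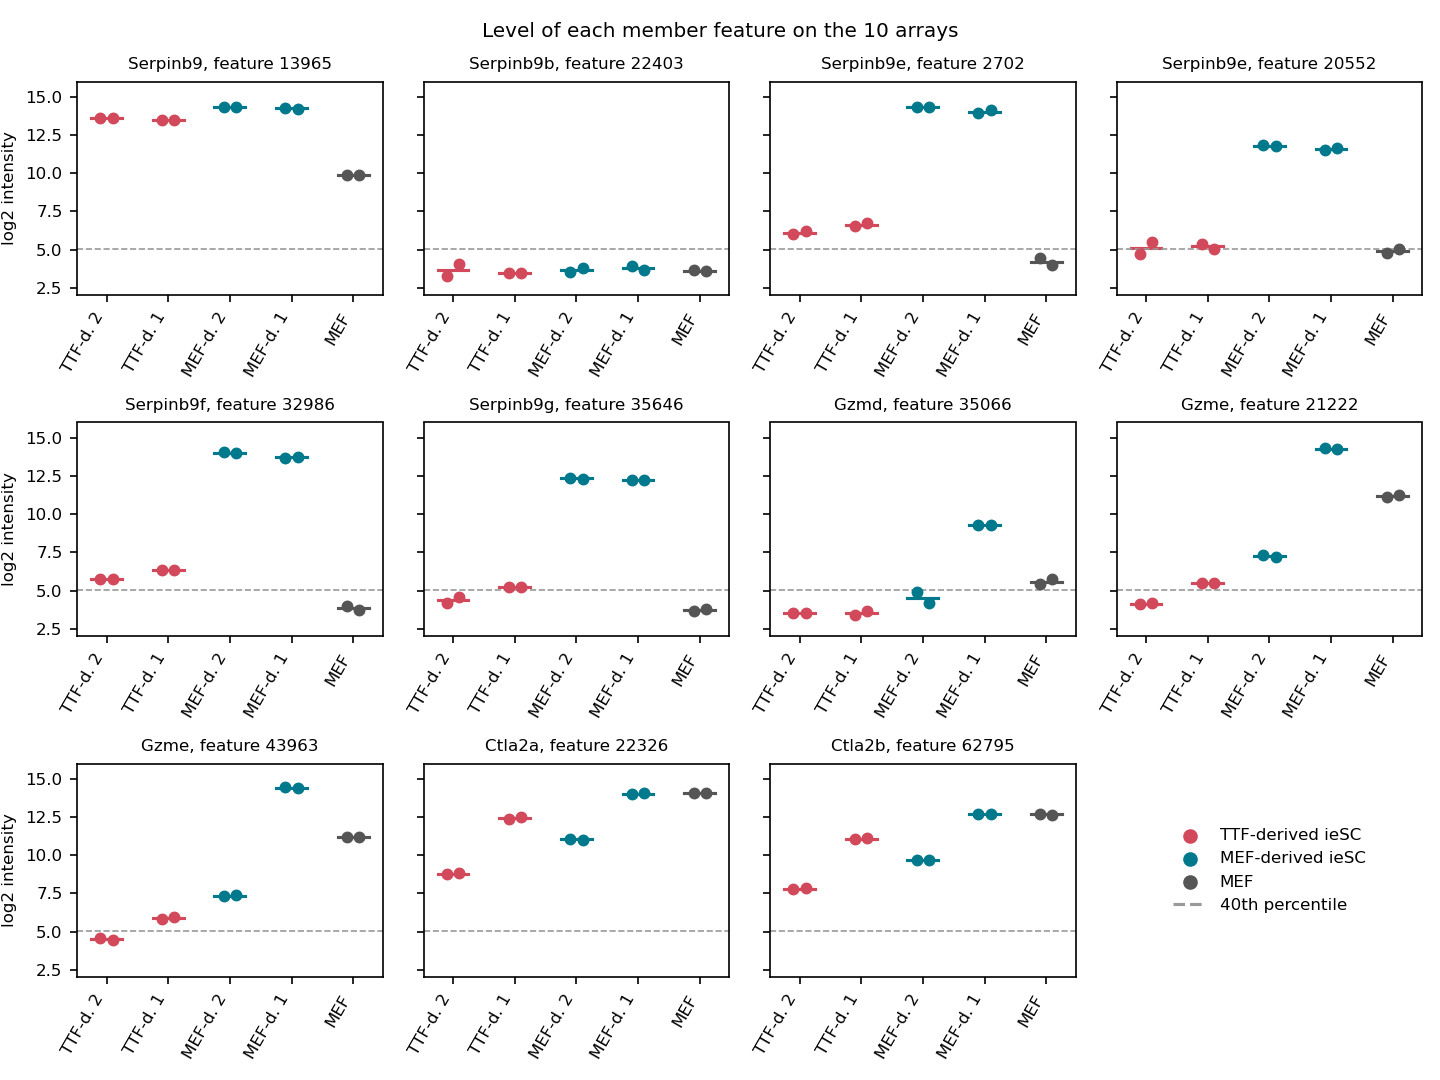
Log2 intensity of each of the 11 features in TTF-derived ieSCs, MEF-derived ieSCs and MEFs, with preparations 2 and 1 apart. Points are arrays, bars the mean of 2 arrays, and the dashed line the 40th percentile. Serpinb9e, Serpinb9f and Serpinb9g are bright on the MEF-derived arrays, while Gzme and both Ctla2 genes differ between preparations as well.

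Serpinb9e, Serpinb9f and Serpinb9g, paralogs of Serpinb9 that arose in rodents, were bright in MEF-derived ieSCs and dim or faint in the other cells. The brighter Serpinb9e feature (2702) read 6.00, 6.21, 6.52 and 6.73 in TTF-derived ieSCs (2a, 2b, 1a and 1b), 14.30, 14.30, 13.93 and 14.12 in MEF-derived ieSCs in that order, and 4.43 and 3.98 in MEFs. The 3 groups did not overlap, with MEFs lowest and TTF-derived ieSCs between. Its origin difference of -7.80 corresponds to a level 223-fold lower in TTF-derived ieSCs. That difference was -8.20 between the preparations numbered 2 and -7.40 between those numbered 1.

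The Serpinb9f feature (32986) gave nearly the same picture, at 5.79, 5.75, 6.33 and 6.33 in TTF-derived ieSCs, 14.07, 13.97, 13.70 and 13.77 in MEF-derived ieSCs, and 4.02 and 3.70 in MEFs. The groups again kept apart, and the origin difference was -7.83. Serpinb9g (35646) read 4.18, 4.57, 5.26 and 5.23 in TTF-derived ieSCs, 12.39, 12.29, 12.22 and 12.23 in MEF-derived ieSCs, and 3.63 and 3.81 in MEFs. Here preparation 2 of the TTF-derived cells lay below the 40th percentile and preparation 1 just above it, and the origin difference was -7.47. Of 42617 tested features ordered from the lowest origin difference, Serpinb9f stood at place 15, Serpinb9e at 16 and Serpinb9g at 18.

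Against MEFs, the mean of the ieSC groups was higher by log2 6.06 ± 0.24 for Serpinb9e (adjusted p = 6.8e-08, limma), 6.10 ± 0.21 for Serpinb9f (adjusted p = 2.829e-08) and 4.83 ± 0.27 for Serpinb9g (adjusted p = 6.314e-07). Each was higher on 8 of 8 ieSC arrays. The size was unequal between origins. TTF-derived ieSCs stood 2.16, 2.19 and 1.09 above MEFs for Serpinb9e, Serpinb9f and Serpinb9g, and MEF-derived ieSCs 9.96, 10.02 and 8.56, which are also the values without the TTF-derived arrays. Because the MEF levels of these genes lie below the 40th percentile, the log2 differences depend on the floor of the array. With every value under that percentile raised to it, the ieSC minus MEF differences were 5.25, 4.96 and 3.69, all still past the threshold, and the TTF-derived cells alone stood 1.35, 1.04 and 0.11 above MEFs.

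Features of such close relatives may catch each other's transcripts, and the array's own sequences were not used here. After each profile was centred on its mean, Serpinb9e (2702) and Serpinb9f differed by 0.079 on average over the 10 arrays and by 0.16 at most, so the arrays do not separate these genes. Serpinb9g differed from Serpinb9f by 0.438 on average. The second Serpinb9e feature (20552) read 4.74, 5.51, 5.35 and 5.06 in TTF-derived ieSCs, 11.86, 11.76, 11.48 and 11.64 in MEF-derived ieSCs, and 4.80 and 5.02 in MEFs. It shared the high level in MEF-derived ieSCs, but its TTF-derived arrays overlapped the MEF arrays. Its ieSC minus MEF difference was 3.51 ± 0.28 (adjusted p = 7.062e-06, limma), with 7 of 8 ieSC arrays above both MEF arrays, and its TTF-derived minus MEF difference was 0.25 where feature 2702 gave 2.16.

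Serpinb9b, which inhibits granzyme M in the mouse, is the member that was not tested. Its feature (22403) read 3.27, 4.06, 3.49 and 3.45 in TTF-derived ieSCs, 3.51, 3.81, 3.90 and 3.68 in MEF-derived ieSCs, and 3.63 and 3.59 in MEFs. All 10 arrays lay below the 40th percentile and the groups overlapped, while its paralogs Serpinb9e, Serpinb9f and Serpinb9g stood far above MEFs in MEF-derived ieSCs.

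Gene order places these values in context. Serpinb9 and Serpinb9b lie first among the Serpinb9 genes, then Serpinb1b, Serpinb9c, Serpinb9d, Serpinb9e, Serpinb9f, Serpinb9h and Serpinb9g follow, with pseudogenes and noncoding RNA genes between. No feature carries the symbol Serpinb9h. Serpinb9d (12974) averaged 3.86 in TTF-derived and 9.42 in MEF-derived ieSCs, and Serpinb9c (17967) averaged 4.20 and 7.62. Both were below the 40th percentile on all TTF-derived and MEF arrays and were tested only through their level in MEF-derived ieSCs. No p-value is given for that difference, though both enter the list counts below. With levels below that percentile raised to it, the origin difference was -4.42 for Serpinb9d and -2.62 for Serpinb9c. The other Serpinb9c feature stayed at 3.41 to 5.10 on all 10 arrays and was not tested.

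**Figure D2:**
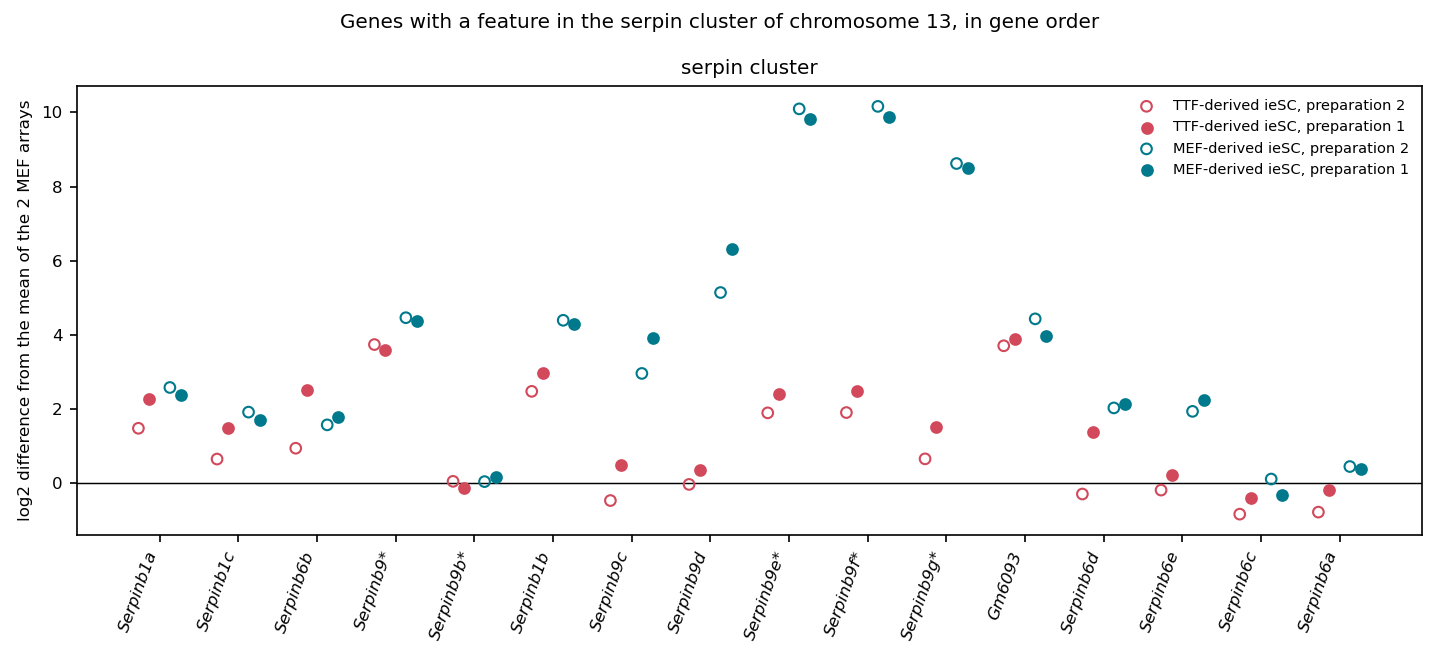
Log2 difference of each ieSC preparation from the mean of the 2 MEF arrays (vertical axis) for genes of the serpin cluster that have a feature, in gene order (horizontal axis; asterisks mark the chosen genes). Each symbol is the mean of 2 arrays, open for preparation 2 and filled for preparation 1. MEF-derived ieSCs stand 8.51 to 10.16 above MEFs at Serpinb9e, Serpinb9f and Serpinb9g, and near 0 at Serpinb9b.

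The other clade B serpins, intracellular protease inhibitors of the same clade, had 17 testable genes of 23 in the list. Against MEFs, 12 of the 17 were higher in ieSCs and 0 lower by limma, where 24.6% of all features were higher and 20.0% lower, and their median was 1.70 beside 0.13 over all features. Serpinb1b was higher by 3.54 ± 0.23, and Serpinb1a, an inhibitor of neutrophil serine proteases, by 2.18 ± 0.24. Between origins, 8 of the 17 were lower in TTF-derived than in MEF-derived ieSCs and 0 higher, where 17.0% of all features were lower and 16.8% higher. Serpinb6e (-2.07 ± 0.22) and Serpinb2, the plasminogen activator inhibitor PAI-2 (-2.91 ± 0.33), were among them. Serpinb9d and Serpinb9c are among the 8 and also among the 12. They were tested only through MEF-derived ieSCs, so their calls are not independent of the filter. Not all of the 12 were raised in both kinds of ieSC. Serpinb9c, Serpinb9d and Serpinb6e stood 0.01, 0.16 and 0.01 above MEFs in TTF-derived ieSCs, and 3.43, 5.73 and 2.08 above in MEF-derived ieSCs. Without the TTF-derived arrays 14 of the 17 were higher than MEFs and 0 lower, beside 11654 and 9420 of 42617 features.

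Gzme differed widely between the preparations of MEF-derived ieSCs. The brighter Gzme feature (43963) read 4.58 and 4.42 in preparation 2 and 5.83 and 5.98 in preparation 1 of TTF-derived ieSCs. In MEF-derived ieSCs it read 7.33 and 7.37 in preparation 2 and 14.45 and 14.37 in preparation 1, and in MEFs 11.21 and 11.18. MEFs thus lay between the preparations of MEF-derived ieSCs, while all TTF-derived arrays were below every other array. The second Gzme feature (21222) read 4.09 and 4.17 in preparation 2 and 5.50 and 5.49 in preparation 1 of TTF-derived ieSCs, 7.30 and 7.23 in preparation 2 and 14.32 and 14.27 in preparation 1 of MEF-derived ieSCs, and 11.15 and 11.23 in MEFs. The features differed by 0.154 on average after centring.

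The preparation difference of Gzme in MEF-derived ieSCs was -7.06 for feature 43963 and -7.03 for feature 21222, a level 134-fold and 131-fold lower in preparation 2. These are places 1 and 2 of 42617 tested features ordered from the lowest such difference, and the highest was 4.20. In TTF-derived ieSCs the same difference was -1.41 and -1.36, or -0.90 and -0.49 with levels below the 40th percentile raised to it. The origin difference was -5.68 for feature 43963. Taken between preparations of the same number it was -2.85 for number 2 and -8.50 for number 1. The labels do not tie those numbers together, so these are not matched pairs.

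Gzmd (35066) was faint on most arrays, at 3.50, 3.53, 3.42 and 3.65 in TTF-derived ieSCs. In MEF-derived ieSCs it read 4.92 and 4.16 in preparation 2 and 9.29 and 9.31 in preparation 1, against 5.41 and 5.77 in MEFs. Only preparation 1 of MEF-derived ieSCs and the MEF arrays exceeded the 40th percentile, and the TTF-derived arrays were the lowest. Its preparation difference was -4.76 in MEF-derived ieSCs, place 9 of 42617, and -0.02 in TTF-derived ieSCs, where every array was below that percentile. With levels below the 40th percentile raised to it, the MEF-derived value was -4.29. The centred profiles of Gzmd and Gzme (43963) differed by 1.586 on average. In preparation 1 of MEF-derived ieSCs Gzmd averaged 9.30 where Gzme averaged 14.41, and in MEFs 5.59 where Gzme averaged 11.20. Whether the Gzmd feature also catches Gzme transcripts was not tested.

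Neither granzyme passed the test against MEFs by limma. The mean of the ieSC groups minus MEF was -3.16 ± 1.87 for Gzme (adjusted p = 0.2072; feature 21222 gave -3.39 ± 1.86 and adjusted p = 0.1735) and -0.37 ± 1.26 for Gzmd (adjusted p = 0.8419). For both genes 2 of 8 ieSC arrays lay above both MEF arrays and 6 below. Without the TTF-derived arrays the Gzme difference was -0.32 (adjusted p = 0.9286) and that of Gzmd was 1.33 (adjusted p = 0.5538), with the sign of Gzmd turned. By preparation, Gzme stood 6.70 and 5.29 below MEFs in preparations 2 and 1 of TTF-derived ieSCs, 3.85 below in preparation 2 of MEF-derived ieSCs and 3.21 above in preparation 1.

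Granzyme genes beyond Gzmd and Gzme were set beside them. Gzmc (55609), another granzyme of activated lymphocytes, averaged 4.53 and 5.85 in preparations 2 and 1 of TTF-derived ieSCs, 9.79 and 14.34 in those of MEF-derived ieSCs, and 8.12 in MEFs. Gzmb (7073), the granzyme that Serpinb9 inhibits, averaged 4.50 and 4.88, then 7.79 and 11.10, and 5.28 in MEFs. Both were highest in preparation 1 of MEF-derived ieSCs. The origin difference was -6.88 ± 1.12 for Gzmc (adjusted p = 0.001291, limma). That call was lost in 1 of 19 alternatives, the averaging of arrays within a name, which alone takes the name as the unit. For Gzmb it was -4.75, or -4.44 with levels below the 40th percentile raised to it. Gzmb was tested only through MEF-derived ieSCs, so no p-value is given for its origin difference, though it enters the list count below. Among 16718 named genes not chosen here, with 1 feature each, Gzmc had the profile nearest to that of Gzme. Its mean distance was 1.201 over the 10 arrays where the median gene was at 3.315. Adamts5, Lce1i, Svop and Piezo2 followed.

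**Figure D3:**
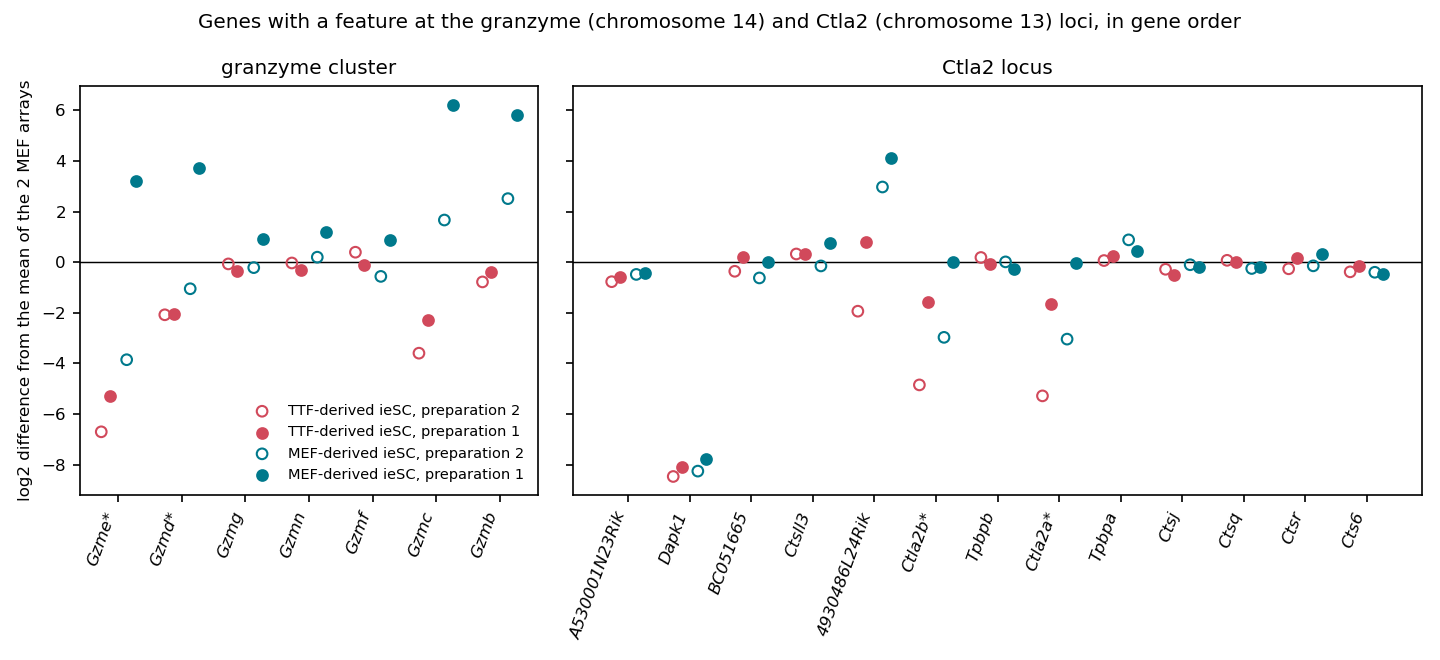
Log2 difference of each ieSC preparation from the mean of the 2 MEF arrays (vertical axis) for genes with a feature at the granzyme and Ctla2 loci, in gene order (horizontal axis; asterisks mark the chosen genes). Each symbol is the mean of 2 arrays, open for preparation 2 and filled for preparation 1. Gzme, Gzmd, Gzmc and Gzmb are highest in preparation 1 of MEF-derived ieSCs, and Ctla2a and Ctla2b are lowest in preparation 2 of TTF-derived ieSCs.

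Of 12 testable genes among the other granzymes and granule serine proteases, 2 were higher in ieSCs than in MEFs and 0 lower by limma, beside 24.6% and 20.0% of all features. Without the TTF-derived arrays 3 were higher and 0 lower, beside 11654 and 9420 of 42617 features. Between origins 1 was higher in TTF-derived ieSCs and 5 were lower, beside 16.8% and 17.0% of all features. The 5 were Gzmb, Gzmc, Gzmn, Mcpt1 and Mcpt4. Of these, Gzmb and Gzmn were tested only through MEF-derived ieSCs, so their calls are not independent of the filter. Mcpt1, a mast cell protease gene, averaged 4.95 in TTF-derived ieSCs, 10.61 in MEF-derived ieSCs and 4.57 in MEFs. Its call against MEFs (3.22 ± 1.12, adjusted p = 0.04093, limma) was lost in 10 of 19 alternatives. Preparations 2 and 1 of MEF-derived ieSCs averaged 8.61 and 12.62 for Mcpt1 and 7.94 and 11.84 for Mcpt4. For Gzmm and Gzmk the preparation difference there was -0.06 and -0.08. Gzmn was read by 10 features, none above 5.76 on any array. Gzmf and Gzmg, which lie between Gzmd and Gzmc, were not tested because they did not exceed the 40th percentile on 2 arrays.

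Cells that normally make granzymes were looked for by their markers. Among 13 testable T and NK cell markers of 20 listed, 1 was higher in ieSCs than in MEFs (Il2rb, the interleukin 2 receptor beta chain, 2.77 ± 0.31) and 1 lower (Ptprc, the pan-leukocyte CD45, -2.62 ± 0.28) by limma. Over all features 24.6% were higher and 20.0% lower, the background for each marker list here with all 10 arrays. Without the TTF-derived arrays 11654 and 9420 of 42617 features were. Between origins Zap70 and Il2rb were lower in TTF-derived ieSCs and Klrd1, tested only through those cells, was higher. The shares of all features were 17.0% lower and 16.8% higher. The mean level of the list ran over 5.74 to 5.90 in TTF-derived ieSCs, 5.81 to 5.92 in MEF-derived ieSCs and 5.72 to 5.74 in MEFs. Cd3d, Cd3g, Cd8b1, Ncr1, Klrb1c and Klrk1 did not reach the level needed for testing, while Cd3e read 10.06 to 10.44 on all arrays. The perforin gene Prf1, whose product opens target membranes to granzymes, read 7.90 to 8.24 in TTF-derived ieSCs, 7.77 to 8.07 in MEF-derived ieSCs and 7.86 to 7.90 in MEFs. Mast cell markers gave 1 higher and 1 lower of 4 testable. These counts, and those of the T and NK list against MEFs, were the same without the TTF-derived arrays. Trophoblast markers gave 2 higher and 1 lower of 6, or 3 and 1 without those arrays. Tpbpa and Tpbpb, which flank Ctla2a, were among 7 that were too dim to test. The 2 higher were Krt18 and Prl7d1. Krt18 averaged 9.95 in TTF-derived ieSCs, 15.08 in MEF-derived ieSCs and 9.69 in MEFs, and Prl7d1 averaged 3.52, 7.03 and 3.98. Prl7d1 was tested only through MEF-derived ieSCs. Krt8 went the other way between origins, at 10.05, 6.90 and 7.17. The part of such cells in the granzyme values was not tested, and in these bulk samples fewer cells and less RNA per cell cannot be told apart.

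Genes that carry granzymes to their targets were counted next. Of 9 testable genes for granzyme delivery, activation and uptake, 3 were higher in ieSCs than in MEFs by limma and 2 lower. Over all features 24.6% and 20.0% were. Without the TTF-derived arrays the counts were 3 and 1, beside 11654 and 9420 of 42617 features. Stxbp2, which primes granule fusion, was higher by 1.94 ± 0.12, and Srgn, the proteoglycan serglycin that packs granzymes in granules, was lower at -3.44 ± 0.28. Among 10 testable granzyme substrates and death effectors 2 were higher and 2 lower, or 2 and 3 without those arrays. Between origins the counts for delivery were 1 higher and 4 lower in TTF-derived ieSCs, and for substrates 4 higher and 1 lower, beside 16.8% and 17.0% of all features. Hmgb2, a chromatin protein cut by granzyme A, was higher by 3.16 ± 0.16 in TTF-derived than in MEF-derived ieSCs.

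Ctla2a and Ctla2b were brightest in MEFs and in preparation 1 of MEF-derived ieSCs, and dimmest in preparation 2 of TTF-derived ieSCs. Ctla2a (22326), the cathepsin inhibitor, read 8.75 and 8.84 in preparation 2 and 12.35 and 12.52 in preparation 1 of TTF-derived ieSCs. It read 11.09 and 10.99 in preparation 2 and 14.01 and 14.05 in preparation 1 of MEF-derived ieSCs, against 14.08 and 14.07 in MEFs. The preparations kept apart within each origin, and the ranges of the origins overlapped.

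Ctla2b (62795), its paralog, read 7.78 and 7.85 in preparation 2 and 11.05 and 11.13 in preparation 1 of TTF-derived ieSCs, 9.70 and 9.69 in preparation 2 and 12.66 and 12.71 in preparation 1 of MEF-derived ieSCs, and 12.69 and 12.64 in MEFs. Its means by preparation followed the order of Ctla2a except between MEFs and preparation 1 of MEF-derived ieSCs, which lay close together for both genes. The centred profiles differed by 0.123 on average, so here too the arrays do not separate the copies. Preparation 2 stood below preparation 1 by 12.5-fold for Ctla2a and 9.66-fold for Ctla2b in TTF-derived ieSCs, and by 7.96-fold and 7.95-fold in MEF-derived ieSCs. The origin difference was -1.92 for Ctla2a and -1.74 for Ctla2b. Between preparations of the same number it was -2.24 and -1.88 for number 2 and -1.59 and -1.60 for number 1.

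Against MEFs, Ctla2a differed by -2.50 ± 1.22 (adjusted p = 0.1302, limma), although 8 of 8 ieSC arrays lay below both MEF arrays, and Ctla2b by -2.34 ± 1.15 (adjusted p = 0.1315), with 6 below both and 1 above. Neither passed the threshold. Preparation 1 of MEF-derived ieSCs differed from MEFs by -0.05 for Ctla2a and 0.02 for Ctla2b. Without the TTF-derived arrays the values were -1.54 and -1.47.

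The proteases and inhibitors of the class that Ctla2 genes belong to were counted in the same way. Of 9 testable papain-family cathepsins 4 were higher in ieSCs than in MEFs by limma and 4 lower, beside 24.6% and 20.0% of all features. Without the TTF-derived arrays the counts were 3 and 4, beside 11654 and 9420 of 42617 features. Ctsl, cathepsin L, was higher by 1.57 ± 0.16, and Ctss, cathepsin S, was lower at -7.25 ± 0.22. The placental cathepsins next to Ctla2a in gene order, such as Ctsj, Ctsq and Ctsr, were too dim to test. On the other side, next to Ctla2b, the protein-coding gene 4930486L24Rik averaged 6.8 in TTF-derived ieSCs, 10.9 in MEF-derived ieSCs and 7.4 in MEFs. Its difference between preparations 2 and 1 was -2.75 in TTF-derived and -1.15 in MEF-derived ieSCs. Of 10 testable cystatins and stefins, the other inhibitors of these proteases, 5 were higher and 1 lower, or 4 and 1 without those arrays, with Cst12 at 7.91 ± 0.36. Between origins 1 cathepsin was higher and 3 were lower in TTF-derived ieSCs, and 0 cystatins were higher and 3 lower, beside 16.8% and 17.0% of all features, with Cst12 at -4.39 ± 0.32 and Cst6 at -3.31 ± 0.36. The Sertoli markers gave 6 higher and 3 lower of 10 against MEFs without the TTF-derived arrays, and 2 higher and 4 lower between origins.

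Profiles like those of the brightest serpin and Ctla2 features were looked for among 16718 named genes. Nearest to Serpinb9 was Elovl7, a fatty acid elongase gene, at a mean distance of 0.097 over the 10 arrays where the median gene was at 1.286, followed by Cadm4, Gm10375, Mapt and Pax3. Nearest to Ctla2a was Slfn2, a Schlafen family gene, at 0.561 where the median was 1.754, followed by Hoatz, Mdga1, Glrb and Pappa. For Serpinb9e, a profile added after the values had been seen, the nearest were 1700019B21Rik (0.663), C130073F10Rik, S100a7l2, S100a8 and its neighbour Serpinb9d (1.39), where the median was 4.069.

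**Figure D4:**
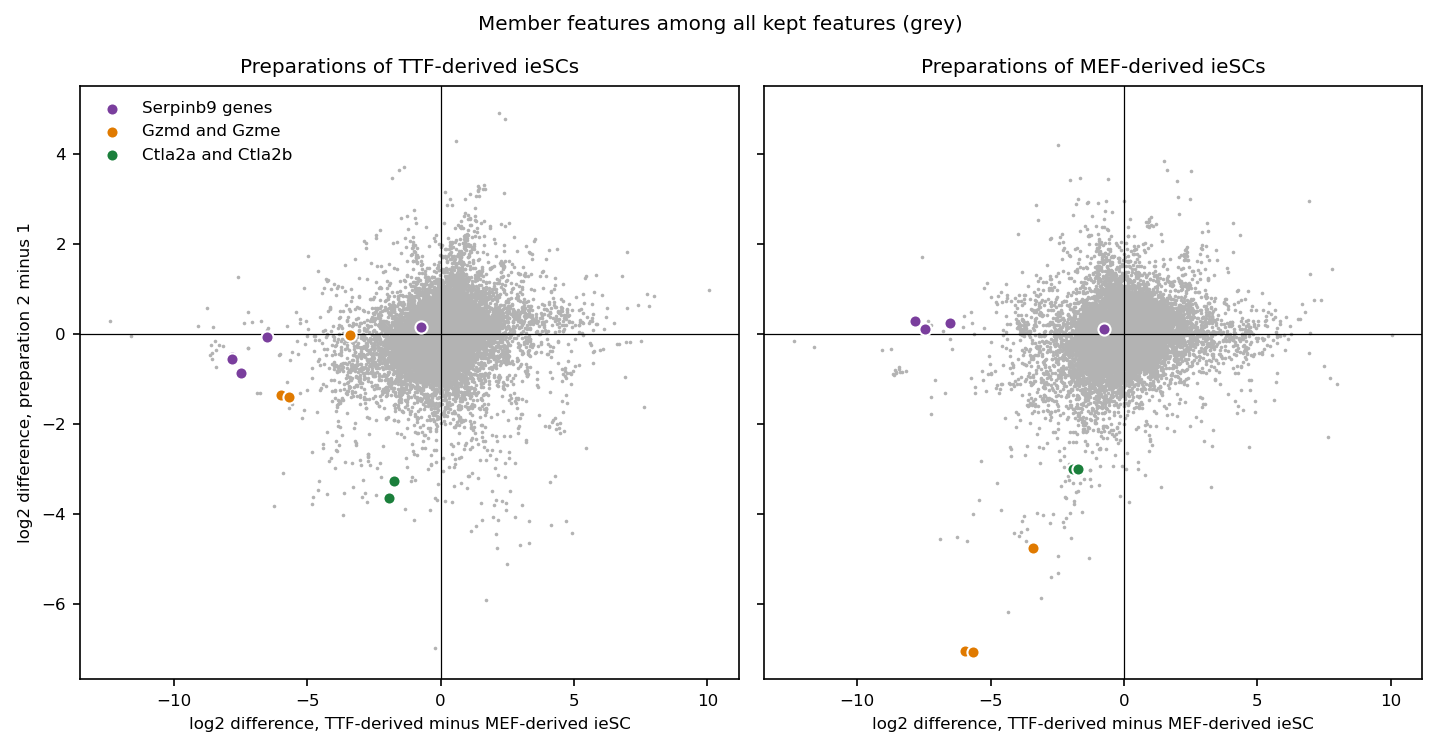
Log2 difference between origins (horizontal axis, TTF-derived minus MEF-derived ieSC) against log2 difference between preparations (vertical axis, 2 minus 1) within TTF-derived ieSCs on the left and MEF-derived ieSCs on the right. Coloured points are the 10 tested features of the chosen genes and grey points all 42617 tested features. Serpinb9e, Serpinb9f and Serpinb9g lie far to the left near 0 vertically, and Gzme lies lowest in the MEF-derived panel.

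Counted together, 4 of the 8 testable genes were higher in ieSCs than in MEFs and 0 were lower by limma, with the other 4 not called. Over all features 24.6% were higher and 20.0% lower. The 4 were Serpinb9, Serpinb9e, Serpinb9f and Serpinb9g, of which the last 3 cannot be counted as separate evidence where their features share signal. The median difference over the 8 genes was 1.84, beside 0.13 over all features. The ieSC arrays that chose the genes also enter this comparison. The features that stand for Serpinb9e, Serpinb9f and Serpinb9g passed the filter only through ieSC arrays.

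By origin, every TTF-derived array lay below every MEF-derived array for 8 of the 10 tested features, from 6 genes, and 22.1% of all features did so. Both Ctla2 features were the exceptions. By preparation, preparation 2 lay at least 2-fold below preparation 1 without overlap for 4 features of 3 genes in TTF-derived ieSCs (Gzme, Ctla2a and Ctla2b), beside 2.27% of all features, and for 5 features of 4 genes in MEF-derived ieSCs (those genes and Gzmd), beside 1.94%. With levels below the 40th percentile raised to it, the Gzme features fell short of 2-fold in TTF-derived ieSCs (log2 -0.90 and -0.49). The genes were selected on these same differences, so the shares describe the choice and nothing is read from them.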

How the data were processed

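RNA of 10 samples was measured, 1 array each. The authors' deposited table holds log2 intensity for 62976 features. limma is named for it, per the submitters' processing notes, and how background was corrected is not stated in the sources used. Once sorted, the columns agree to 0.0379 or better over the upper 60 percent of values, as after quantile normalization, so a change in total mRNA per cell cannot be seen. Depth has no meaning here, and the number of arrays limits the precision. Of the features, 31465 carry a gene symbol from the platform annotation, updated through RefSeq's gene table (GRCm38.p6, 29050 features matched by accession).

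The source name of each label gave its group. Features above the array's 40th percentile on 2 or more arrays were kept (42617). limma 3.58.1 (R 4.3.3, statmod 1.5.0) fitted 1 mean per group over the 10 arrays, with the shared array name as a random block (duplicateCorrelation, correlation 0.468, 7 residual degrees of freedom). The moderated test was two-sided with Benjamini-Hochberg adjustment over all kept features and a threshold of 0.05. The median SE was 0.177 for ieSC minus MEF and 0.158 between origins. The chosen genes were tested for ieSC minus MEF, and the origin test was used only for list genes and backgrounds. The fit was tested on simulated data. Promoter windows were read from RefSeq's table (GRCm38.p6), in which all 9 genes matched, and aligned with Biopython 1.88.

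The genes named are the 9 chosen genes, up to 4 of each of 11 lists by smallest p in either comparison, and the 5 nearest profiles of 3 features; neighbours in the same gene cluster and markers used to check the labels are named beside them. The chosen genes and the lists were chosen with earlier results of these data known. A gene with several kept features stands by the one with the highest mean. Alternatives were no block, averaged arrays, other filters, 1 feature per gene, 75th percentile scaling, a floor at the 40th percentile, a trended prior, a replicate block, each array left out and, added after seeing the data, the TTF-derived arrays left out.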

Additional observations from a re-analysis of the deposited data

Results flagged for a closer look

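Among 132 groups of 4 arrays (66 features, 11 of them from the chosen genes), 4 held an array far from the other 3. Chance gives about 1 in 20 if the 4 arrays are independent, which arrays sharing a name may not be. None of the 4 was in a chosen gene. A group split widely by preparation, as for Gzme and both Ctla2 genes, cannot be flagged in this way. Serpinb1b read 8.71 on array 1a of MEF-derived ieSCs with the other arrays at 8.88 to 8.90, and Gzmb read 4.02 on array 2b of TTF-derived ieSCs with the others at 4.87 to 4.99. Ctsk read 7.67 on array 2b of MEF-derived ieSCs with the others at 7.82 to 7.83, and Fap read 3.22 on the same array with the others at 3.68 to 3.73.

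The difference between preparations 2 and 1 had opposite signs by origin for 3 chosen genes, with every array of preparation 2 on one side of preparation 1. It was -0.52 in TTF-derived and 0.28 in MEF-derived ieSCs for Serpinb9e (2702), -0.57 and 0.29 for Serpinb9f, and -0.87 and 0.11 for Serpinb9g. With levels below the 40th percentile raised to it, the TTF-derived value of Serpinb9g was -0.24. Whether these differences differ between origins was not tested, and the labels do not tie the numbers of the origins together.

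The difference from MEFs had opposite signs by origin, on every array, for 6 list genes. TTF-derived and MEF-derived ieSCs stood at -2.93 and 3.94 from MEFs for Gzmc, -0.59 and 4.16 for Gzmb, -0.34 and 0.22 for Lamp1, a lysosome membrane gene, 0.99 and -2.16 for Hmgb2, 0.81 and -0.29 for Klrd1, an NK cell receptor gene, and -0.61 and 0.78 for Zap70, a T cell kinase gene. The origin difference itself passed the limma test for Gzmc (adjusted p = 0.001291), Lamp1 (0.02017), Hmgb2 (1.081e-06) and Zap70 (0.005439). Gzmb was tested only through MEF-derived ieSCs and Klrd1 only through TTF-derived ieSCs, so no p-value is given for their origin difference. With the arrays of each name averaged, Hmgb2 kept its call and Gzmc, Lamp1 and Zap70 lost theirs. With levels below the 40th percentile raised to it, the origin difference was -4.44 for Gzmb and 0.15 for Klrd1. Klrd1 averaged 5.00, 3.89 and 4.18 in TTF-derived ieSCs, MEF-derived ieSCs and MEFs, near or below the 40th percentile.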

How the results depend on the processing

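The 4 chosen genes called higher in ieSCs than in MEFs were 4 under each of the 19 alternatives, and none of the other 4 was called under any of them. The highest adjusted p of the 4 called genes came with the arrays of each name averaged, a fit that leaves 1 MEF value. The uncalled Gzmd difference ran from -0.56 to 1.33, and was 0.49 with the floor at the 40th percentile. Of all features, 19005 were called for ieSC minus MEF, against 12538 with averaged arrays, 8282 with 1 feature per gene and 21074 without the TTF-derived arrays, and 14414 between origins, against 5276 and 6023 under the first pair; 1 feature per gene tests fewer features (16726). With a replicate block on the 8 ieSC arrays, 19629 features were called between origins; the labels do not tie the numbers together, and the preparation differences of the origins correlated at 0.273 over 42617 features. Values without a test moved beyond the array spread in 4 cases of 66, all with the floor: preparation differences of Gzme in TTF-derived ieSCs (-0.90 for feature 43963, -0.49 for feature 21222), of Gzmd in MEF-derived ieSCs and of Serpinb9g in TTF-derived ieSCs. Of list gene results under the alternatives, 1311 kept their call and 73 lost it, and no called result reversed. Differences against levels near 5 or below are limited by the array's floor.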
